A study of Homo sapiens with 16 samples.

Results

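The 38 genes described here make or control the supply of cholesterol and fatty acids in a cell. They were taken by symbol from a table of read counts for 60676 genes, in which all 38 were found, and they were divided by role into 25 sterol genes and 12 fatty acid genes. The remaining gene, MVB12A, codes for a subunit of the ESCRT-I membrane sorting complex and was kept outside both subsets. RNA was measured by poly(A) RNA-seq in HCT116, a human colorectal carcinoma cell line. All cells expressed an shRNA, either the control (shCTL) or one targeting NELFE (shNELFE). Each was treated with DMSO, with EPZ-5676, with HMBA or with EPZ-5676 + HMBA, which makes 8 groups of 2 libraries numbered 1 and 2. NELFE is the RNA-binding subunit of the negative elongation factor, which holds RNA polymerase II near promoters. EPZ-5676 (pinometostat) inhibits the histone methyltransferase DOT1L, and HMBA (hexamethylene bisacetamide) frees the elongation kinase P-TEFb and raises HEXIM1. The study asked how the knockdown and the compounds, alone and together, alter mRNA levels. The sources used here do not give doses, treatment times or the number of shRNA clones. Separate cultures are not stated for the 2 libraries of a group, so the p-values reflect spread among these samples that may be technical.

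Cells sense cholesterol in the endoplasmic reticulum. When it is scarce, SCAP carries the membrane-bound precursors of the SREBP transcription factors, encoded by SREBF1 and SREBF2, to the Golgi, where they are cut and freed to enter the nucleus. When sterols are plentiful, INSIG1 and INSIG2 retain SCAP in the endoplasmic reticulum. SREBP-2 is best known for activating the mevalonate and sterol enzymes, SREBP-1 for the enzymes that make and desaturate fatty acids, and INSIG1 is itself a well-known SREBP target.

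Of the libraries numbered 1, 7 stood apart from the other 9, with a Pearson r across genes of 0.678 to 0.781 between the 2 sets and 0.920 to 0.990 among the 9. NELFE and HEXIM1 were compared as CPM (counts scaled to library size), here scaled over all 16 libraries. NELFE lay between 12.7 and 20.9 CPM in the 5 libraries labelled shNELFE among the 9, and between 67.7 and 78.3 in the 4 labelled shCTL. Among the 7 it lay between 81.5 and 144 in those labelled shNELFE and 99.5 and 278 in those labelled shCTL. HEXIM1 was 42.8 to 73.7 CPM in the 7 whatever the label, whereas in the 9 it ranged over 64.5 to 80.5 where HMBA was not given and 329 to 381 where it was. NELFE or HEXIM1 thus went against the label in 5 of the 7. The other 2, shCTL DMSO and shCTL EPZ-5676 replicate 1, did not go against their labels in NELFE or HEXIM1. Their NELFE, at 242 and 99.5 CPM, was nevertheless above the shCTL libraries of the 9. HEXIM1 was 65.7 and 44.8 CPM in these 2, the second below the range of the 9. Effects were fitted to the 8 libraries numbered 2, which hold 1 library of each group. The remaining library, shNELFE EPZ-5676 + HMBA replicate 1, is shown beside them and called the ninth library below. In the fit, HMBA, shNELFE and EPZ-5676 each had a term, every effect compared 4 libraries with 4, and a gene was called higher or lower at an edgeR adjusted p under 0.05 over 14808 genes. No group has replicates in this fit, so its error is the departure of single libraries from additive effects. The ninth library differed from its own group's replicate 2 by a median of 0.412 on the log2 scale, signs set aside, over the 37 members tested. The gap was over 0.5 in 12 of them and widest in EBP (131 against 57.6 CPM). It was mostly in 1 direction, as only HMGCS1, IDI1, LSS, SC5D, STARD4 and ACACA were lower in the ninth library. Of the 9, the ninth library also had the highest mitochondrial share of counts (12.2%) and the lowest TMM scaling factor (0.810). Adding it left 9 libraries and fewer calls, which are given beside each effect.

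Total counts ran from 13428893 to 16354111 in the libraries numbered 2 and reached 17867037 in the ninth, so that 3 counts corresponded to 0.168 to 0.223 CPM, a floor that covers counting error only. On totals scaled over all 16 libraries, epithelial markers summed to 4394 to 7661 CPM in the 9 libraries. Of 10 epithelial markers, 7 (EPCAM, CDH1, KRT8, KRT18, KRT19, KRT20 and CDX2) exceeded 1 CPM in every one of the 9. Adipocyte markers summed to at most 0.539 CPM, with LEP at 0, and hepatocyte markers to at most 1.21 CPM, with TTR at 0. The markers of these lipid-making cell types were thus at or near 0. Blood markers reached 0.803 CPM at most, with CD3E at 0.

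Per kilobase of exon, 3 fatty acid enzymes, SCD, FASN and ACLY, stood highest among the 38 genes in shCTL DMSO cells (replicate 2). SCD, the desaturase that makes monounsaturated fatty acids, had a level of 143 CPM per kilobase, FASN, the fatty acid synthase, 109.5, and ACLY, which makes cytosolic acetyl-CoA from citrate, 68.3. SREBF2 followed at 29.9 CPM per kilobase and FDPS, the farnesyl diphosphate synthase, at 27.4. The order of these 5 levels rests on a single library, and each gene's counts are also shaped by sequence. FADS2, a desaturase of polyunsaturated fatty acids, was lowest of the 37 tested members at 1.66 CPM per kilobase. NPC1L1, the intestinal cholesterol importer, had 2 to 10 counts per library (0.124 to 0.640 CPM) and was the only member that the filter on low counts removed. The other 37 had at least 71 counts in every one of the 9 libraries. Over the 8 libraries numbered 2, the ratio of the highest to the lowest level was 8.56 for INSIG1, 5.19 for TM7SF2, 4.94 for IDI1, 3.97 for INSIG2 and 3.87 for SQLE. At the other end it was 1.31 for FADS1 and 1.33 for HMGCS1.

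**Figure D1:**
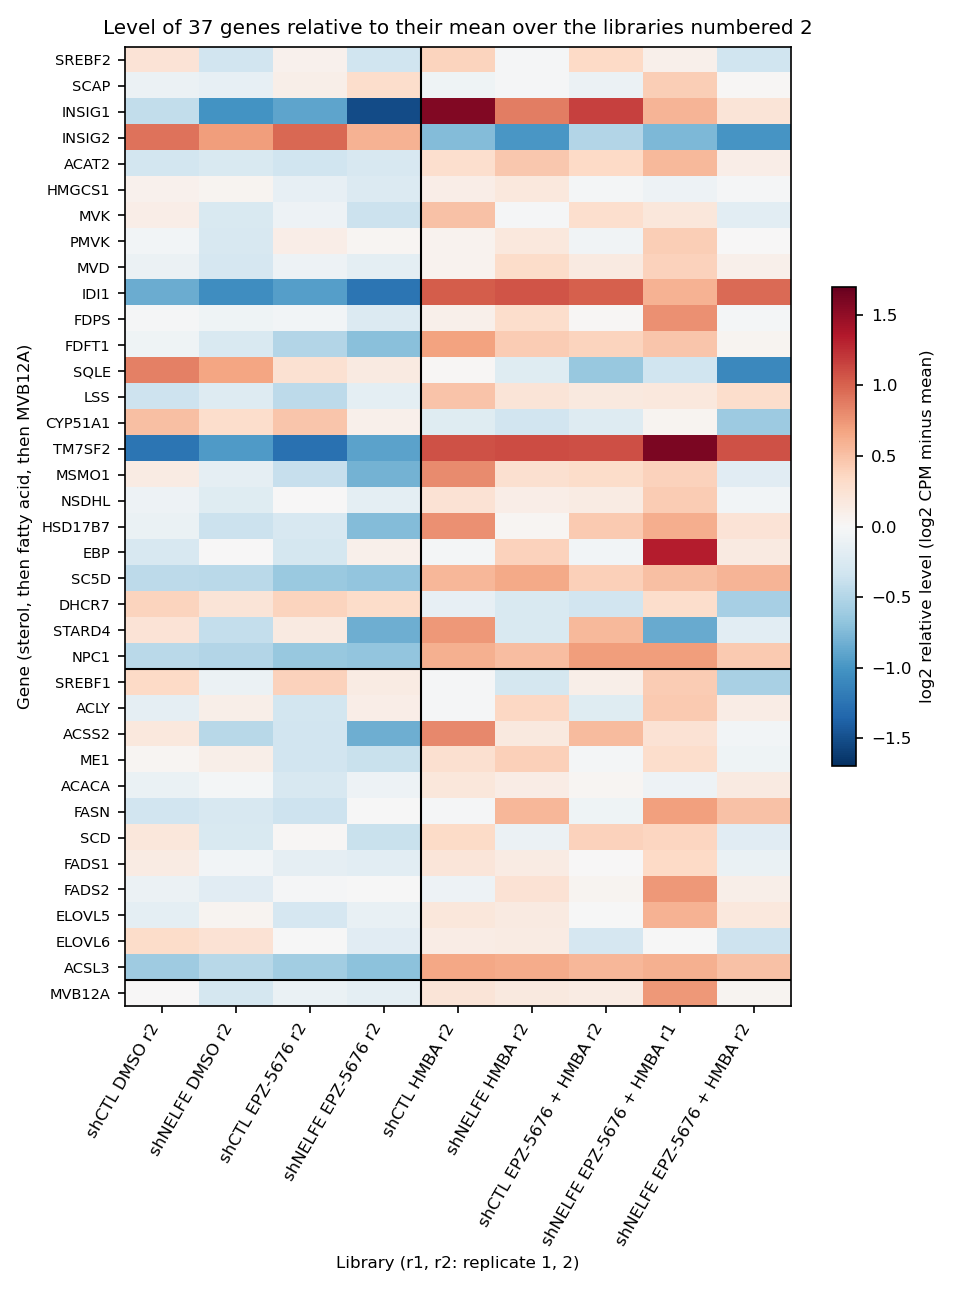
Heat map of 37 genes (rows) in 9 libraries (columns), coloured by log2 CPM minus the gene's mean over the 8 libraries numbered 2; horizontal lines part the sterol genes, the fatty acid genes and MVB12A, and the vertical line parts libraries without HMBA (left) from those with it (right). INSIG1, IDI1 and TM7SF2 are blue in all 4 libraries on the left and red in all 5 on the right, INSIG2 is the reverse, and the ninth library (r1) is redder than its replicate 2 for EBP, DHCR7 and SREBF1.

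The stretch just before a gene's start was examined because SREBPs bind a short sterol response element there, usually beside a CCAAT box. RefSeq promoter sequences (GRCh38.p14) were listed for 34 of the 38 genes, some with several starts, and not for SQLE, FDFT1, ACAT2 and FASN. The core CACNCCAC, searched on both strands in the 250 bases before each start, was found at 1 start or more of 6 members (17.6%), against 6.70% of 15842 protein-coding genes and 5.89% of all 27305 genes. These 6 were SREBF2, INSIG1, IDI1, SC5D, ACACA and SCD. The longer TCACNCCAC, which contains the core, was found in SREBF2 alone, and in 1.19% of protein-coding genes. CCAAT was found in 24 members (70.6%), of which 17 were among the 22 sterol genes listed, against 40.2% of protein-coding genes. CACGTG, the E-box that SREBPs can also bind, was found in 4 members (11.8%) and in 9.73% of protein-coding genes. The letters searched were chosen with earlier results of these data known, a match is not evidence of binding, and genes without one were not shown to lack a site.

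Sequences are printed where the stretch lies before the GENCODE gene start as well, for 2 regulators with the core and for TM7SF2, in which the core was not found and which was among the members that HMBA moved most. Each is on the plus strand, 5′ to 3′, with the core (or its reverse complement) and each CCAAT box (or ATTGG) in capitals, and covers chr7:155297628-155297775, chr22:41832855-41833078 and chr11:65111622-65111844.
INSIG1: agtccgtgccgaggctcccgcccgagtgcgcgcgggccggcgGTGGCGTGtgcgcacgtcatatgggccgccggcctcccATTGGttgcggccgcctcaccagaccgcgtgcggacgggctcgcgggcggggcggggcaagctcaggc
SREBF2: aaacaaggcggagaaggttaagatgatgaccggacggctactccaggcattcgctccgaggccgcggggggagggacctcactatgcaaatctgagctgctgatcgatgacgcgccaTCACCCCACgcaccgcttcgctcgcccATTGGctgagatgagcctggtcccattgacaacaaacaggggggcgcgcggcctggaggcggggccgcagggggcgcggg
TM7SF2: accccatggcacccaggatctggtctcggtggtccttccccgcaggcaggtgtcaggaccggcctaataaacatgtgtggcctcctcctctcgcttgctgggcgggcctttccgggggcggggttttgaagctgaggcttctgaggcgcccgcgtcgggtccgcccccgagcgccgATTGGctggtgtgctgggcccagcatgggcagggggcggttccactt
In INSIG1 the core lies 201 to 208 bases before the RefSeq start on the minus strand and the CCAAT box 166 to 170 bases before it. In SREBF2 the core lies 125 to 132 bases before the start on the plus strand, within the longer form, and the CCAAT box 102 to 106 bases before it. TM7SF2 has a CCAAT box on the minus strand 70 to 74 bases before its start.

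With HMBA, sterol genes rose more often than they fell. Of 24 tested, 17 were higher, 4 were lower and 3 were not called, so that 87.5% were called against 70.5% of all 14808 genes. By direction, 70.8% of the sterol genes were higher and 16.7% lower, against 34.9% and 35.7% of all genes, and the median log2 fold change was 0.31 against 0.0069. Of the 12 fatty acid genes 7 were higher and 2 lower (75% called), with a median of 0.23, and MVB12A was higher. On totals without TMM scaling, which moves the median of all genes by -0.23 and leaves 32.8% of calls higher in place of 49.4%, 10 sterol genes were higher and 5 lower, and 3 and 2 of the fatty acid genes. With the ninth library 14 sterol genes were higher and 4 lower, and 7 fatty acid genes were higher and 0 lower.

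The 2 INSIG genes, which hold SCAP in the endoplasmic reticulum, moved in opposite directions. INSIG1 (ENSG00000186480, chromosome 7, 155297776 to 155310235) stood at 37.4, 24.7, 26.8 and 17.3 CPM in shCTL DMSO, shNELFE DMSO, shCTL EPZ-5676 and shNELFE EPZ-5676 (all numbered 2), an order kept below for libraries without HMBA. Gene coordinates here and below are those of GENCODE on GRCh38. With HMBA it stood at 148, 91.0, 112 and 58.2 CPM in the same 4 backgrounds and at 74.6 in the ninth library. The lowest level with HMBA was above the highest without it, and HMBA raised INSIG1 3.81-fold (log2 fold change 1.93, SE 0.07, edgeR adjusted p = 4.52e-11), in 4 of 4 pairs of libraries that differ in HMBA alone. INSIG2 (ENSG00000125629, chromosome 2, 118088452 to 118110997) was 21.4, 18.5, 22.3 and 17.0 CPM without HMBA and 6.79, 5.70, 8.0 and 5.61 with it, with 6.63 in the ninth library. It fell 3.03-fold (log2 fold change -1.60, SE 0.10, edgeR adjusted p = 6.04e-09) with no overlap between the arms. The regulators above them moved less. SREBF1 was 107 ± 20.9 CPM with HMBA and 139.5 ± 20.6 without it (SD, n = 4), where the SD of each arm includes the effects of shRNA and EPZ-5676. Its log2 fold change was -0.38 (edgeR adjusted p = 4.00e-04), and with the ninth library, at 163 CPM, the call was lost (-0.22, edgeR adjusted p = 0.253). SREBF2 had 0.18 (edgeR adjusted p = 0.0194), higher in 3 of 4 pairs, and it went to -0.050 on unscaled totals and lost its call with the ninth library (edgeR adjusted p = 0.0518). SCAP, the escort of the SREBPs, was not called at -0.080.

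Of the 7 tested genes of the mevalonate pathway, which builds isoprenoid units from acetyl-CoA, 5 were higher and 0 lower. IDI1, the isopentenyl diphosphate isomerase (ENSG00000067064, chromosome 10, 1039152 to 1049170), had 51.9, 44.7, 48.6 and 39.3 CPM without HMBA and 189.6, 194, 187 and 181 with it. Every library with HMBA was above every library without it, and the ninth library held 139.9 CPM. The HMBA effect on IDI1 was 4.10-fold (log2 fold change 2.04, SE 0.07, edgeR adjusted p = 1.83e-11). ACAT2, the thiolase that joins 2 acetyl-CoA, had a log2 fold change of 0.60, MVD, the mevalonate diphosphate decarboxylase, 0.31, and MVK, the mevalonate kinase, 0.30. FDPS had 0.19 and changed sign on unscaled totals. HMGCS1, the HMG-CoA synthase, had 0.13 (edgeR adjusted p = 0.0753) and the phosphomevalonate kinase PMVK 0.087 (0.464), neither of them called.

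All 11 genes from squalene to cholesterol were called, 8 higher and 3 lower. TM7SF2, a sterol reductase (ENSG00000149809, chromosome 11, 65111845 to 65116384), had 20.8, 25.1, 20.5 and 26.1 CPM without HMBA. With HMBA its level was 104, 106, 105 and 104 CPM, and 149 in the ninth library. The arms did not overlap, and TM7SF2 was the member with the largest HMBA fold change, 4.56-fold (log2 fold change 2.19, SE 0.08, edgeR adjusted p = 1.97e-11). SC5D, the sterol desaturase, had 75.7 ± 5.11 against 35.3 ± 2.82 CPM, a 2.15-fold rise (log2 1.10, SE 0.07). FDFT1, the squalene synthase that commits farnesyl units to sterols, rose with a log2 fold change of 0.77. HSD17B7 rose with 0.75, MSMO1 with 0.60, LSS (lanosterol synthase) with 0.59, EBP with 0.24 and NSDHL with 0.23. SQLE, the squalene epoxidase between FDFT1 and LSS, went the other way. Its levels were 85.2, 75.0, 56.0 and 52.2 CPM without HMBA, 47.5, 40.6, 30.1 and 22.0 with it and 37.1 in the ninth library. SQLE fell 1.94-fold (log2 fold change -0.96, SE 0.08, edgeR adjusted p = 6.50e-08), in 4 of 4 pairs and without overlap. CYP51A1, the lanosterol demethylase, fell with -0.68 and DHCR7, the reductase of the last step, with -0.64, again without overlap between the 4 and 4 libraries. The ninth library had 66.1 CPM of DHCR7, near the 67.3 ± 3.41 CPM of the libraries without HMBA.

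Both tested transport genes rose. NPC1, which exports cholesterol from lysosomes, had 42.0, 40.8, 36.8 and 36.1 CPM without HMBA and 88.1, 82.8, 94.2 and 78.3 with it, and 94.7 in the ninth library. The rise was 2.21-fold (log2 fold change 1.14, SE 0.07, edgeR adjusted p = 5.01e-09) with no overlap. STARD4, a cytosolic cholesterol carrier, rose with a log2 fold change of 0.43 (edgeR adjusted p = 3.71e-04) in 4 of 4 pairs, and its arms overlapped. The ninth library, which had HMBA, held 20.0 CPM of STARD4, below every library without HMBA (20.4 to 42.5).

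Among fatty acid genes the largest rise with HMBA was that of ACSL3, an acyl-CoA synthetase of the endoplasmic reticulum and lipid droplets. Its levels were 77.1, 83.9, 77.8 and 71.9 CPM without HMBA, 185, 182, 173 and 165 with it and 177 in the ninth library, a 2.27-fold rise (log2 fold change 1.18, SE 0.06, edgeR adjusted p = 7.81e-10). ACSS2, which makes acetyl-CoA from acetate, rose 1.66-fold (log2 0.73, SE 0.07), from 33.2 ± 9.96 to 54.8 ± 14.7 CPM (SD, n = 4). FASN had a log2 fold change of 0.49, the NADPH-making malic enzyme ME1 0.29, the elongase ELOVL5 0.27 and the acetyl-CoA carboxylase ACACA 0.26, all called higher. ME1, ELOVL5 and ACACA lost their calls on unscaled totals, where ACSL3, ACSS2 and FASN were the fatty acid genes still called higher. SCD was called higher at 0.21 and changed sign on unscaled totals. ELOVL6, the elongase of saturated fatty acids, was called lower at -0.17. It was not called by DESeq2, with the ninth library or in some of the fits with 1 library left out. ACLY (0.13), FADS1 (0.12) and FADS2 (0.16) were not called, with edgeR adjusted p of 0.0534, 0.0939 and 0.127. MVB12A had 0.29.

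Of the members with a listed promoter, 22 were called higher with HMBA, 5 lower and 6 were not called. The sterol core was found in 6, 0 and 0 of these and the CCAAT box in 20, 1 and 2, which are counts given with no test. Shares among all genes called higher, lower or not called were not counted for comparison. SQLE, called lower with HMBA, and FDFT1, ACAT2 and FASN, called higher, had no listed promoter. SREBF2 and SCD, which hold the core, and FDPS, which holds a CCAAT box, change sign on unscaled totals. For shNELFE the core was found in 3 of 11 listed members called lower, 0 of 2 called higher and 3 of 20 not called, and for EPZ-5676 in 1 of 5 called lower and 5 of 28 not called.

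Other measures were compared between the same 8 libraries. The mitochondrial share of counts ranged over 8.87% to 10.1% where HMBA was given and 6.12% to 6.90% where it was not. Endothelial markers summed to 9.16 to 13.4 CPM with HMBA and 1.71 to 2.88 without, which did not overlap. Hepatocyte markers, at low levels, did not overlap either (0.443 to 1.11 against 0 to 0.129). Blood markers (0.148 to 0.813 against 0.0643 to 0.171) and adipocyte markers (0.192 to 0.517 against 0 to 0.257) overlapped. Mesenchymal markers (64.8 to 105 against 34.6 to 66.4) and epithelial markers (4647 to 5320 against 4456 to 5966) overlapped. Their part in the rise or fall of the lipid genes was not tested. In RNA from bulk cultures, fewer cells expressing a gene and less RNA per cell cannot be told apart.

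**Figure D2:**
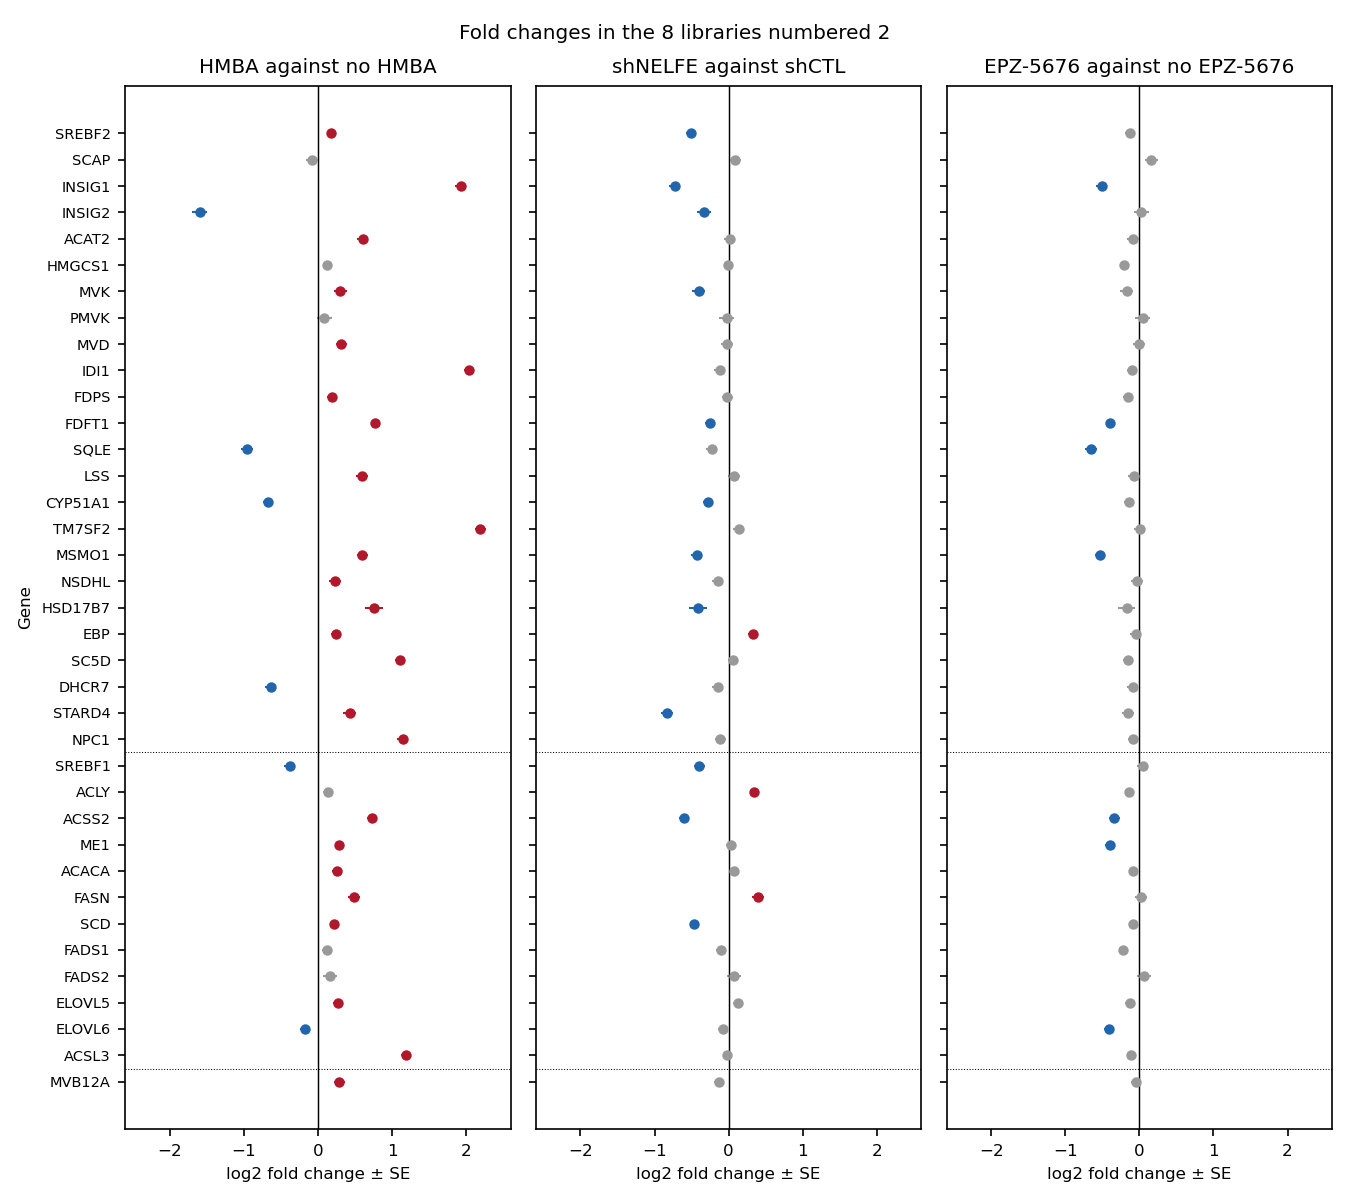
log2 fold change ± SE (horizontal axis) of the 37 tested genes for HMBA, shNELFE and EPZ-5676 in the 8 libraries numbered 2; red points were called higher, blue lower and grey not called (edgeR adjusted p under 0.05), and dotted lines part sterol genes, fatty acid genes and MVB12A. HMBA values span -1.60 (INSIG2) to 2.19 (TM7SF2), shNELFE values -0.83 (STARD4) to 0.39 (FASN) and EPZ-5676 values -0.65 (SQLE) to 0.16 (SCAP); SREBF2, FDPS and SCD change sign for HMBA on unscaled totals.

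With NELFE knockdown, sterol genes were mostly lower or not called. Of 24 tested, 1 was higher, 9 were lower and 14 were not called. The share called lower was 37.5%, against 7.48% of all genes, and the share called higher 4.17% against 5.62%, with 13.1% of all genes called in either direction. The median log2 fold change was -0.13 against 0.0057 for all genes. The 12 fatty acid genes split, with 2 higher and 3 lower and a median of 0.0036. These calls depend on single libraries. With the ninth library, 353 genes were called in place of 1940, and 3 sterol genes (SREBF2, INSIG1 and STARD4) and 1 fatty acid gene (ACSS2) were called, all lower. Without shCTL DMSO replicate 2, or without shCTL EPZ-5676 + HMBA replicate 2, 6 sterol genes were called in place of 10.

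SREBF2 (ENSG00000198911, chromosome 22, 41833079 to 41907308) was lower in every shNELFE library numbered 2 than in every shCTL library. Its levels were 226, 203, 251 and 243 CPM in shCTL cells with DMSO, EPZ-5676, HMBA and both compounds, an order kept below. In shNELFE cells numbered 2 they were 154, 152, 190.0 and 152 CPM, and the ninth library, also shNELFE, had 205, above the lowest shCTL library. The knockdown effect was 1.43-fold lower (log2 fold change -0.51, SE 0.06, edgeR adjusted p = 2.02e-04), and it was still called with the ninth library (-0.45, edgeR adjusted p = 0.0360). INSIG1 fell 1.66-fold (log2 fold change -0.73, SE 0.07, edgeR adjusted p = 4.62e-05), lower in 4 of 4 pairs, with paired log2 differences from -0.94 to -0.60, and kept its call with the ninth library (edgeR adjusted p = 0.00503). SREBF1 had -0.40 (edgeR adjusted p = 0.00385), which the ninth library, with the highest SREBF1 of the 9, reduced to -0.24 (edgeR adjusted p = 0.448). INSIG2 had -0.33 (edgeR adjusted p = 0.0427) and was not called after any of the 8 libraries was left out. SCAP was not called at 0.082.

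STARD4 (ENSG00000164211, chromosome 5, 111496033 to 111512590) showed the largest fall of the members on knockdown. In shCTL cells it stood at 42.5, 40.5, 60.5 and 53.2 CPM and in shNELFE cells numbered 2 at 27.5, 20.4, 30.5 and 32.0. The ninth library, at 20.0 CPM, was lower still. The fall was 1.78-fold (log2 fold change -0.83, SE 0.08, edgeR adjusted p = 4.91e-05), in 4 of 4 pairs and without overlap, and it was called with the ninth library too (-0.92, edgeR adjusted p = 0.00687). NPC1, the other transport gene tested, was not called at -0.11. MSMO1, a methylsterol oxidase, had -0.43 and MVK -0.41, both called lower in 4 of 4 pairs. Their edgeR adjusted p with the ninth library were 0.210 and 0.116. HSD17B7 (-0.41), CYP51A1 (-0.28) and FDFT1 (-0.25) were the other sterol enzymes called lower. MVK was the only mevalonate gene of 7 called, and IDI1, which HMBA moved most in that group, had -0.12 (edgeR adjusted p = 0.261).

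EBP, the sterol isomerase, was the sterol gene called higher on knockdown. Its levels were 42.7, 41.9, 50.5 and 50.2 CPM in shCTL cells and 52.1, 54.8, 68.1 and 57.6 in shNELFE cells numbered 2, with no overlap (log2 fold change 0.33, SE 0.07, edgeR adjusted p = 0.00802). At 131 CPM the ninth library was above all others. With it the estimate was 0.55 and the call was lost (edgeR adjusted p = 0.192).

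In the fatty acid subset, the genes called higher on knockdown were ACLY and FASN, which both act on the route from citrate to palmitate. ACACA, whose carboxylase step lies between them, was not called (log2 fold change 0.077). FASN (ENSG00000169710, chromosome 17, 82078333 to 82098332) had 1026, 1012, 1268 and 1221 CPM in shCTL cells, 1066, 1279, 1911 and 1828 in shNELFE cells numbered 2 and 2082 in the ninth library. FASN was higher in shNELFE in 4 of 4 pairs, with overlapping arms, and the additive effect was 1.31-fold (log2 fold change 0.39, SE 0.08, edgeR adjusted p = 0.00620). ACLY had 446 ± 39.1 against 353 ± 29.3 CPM (SD, n = 4), a log2 fold change of 0.34 with no overlap. With the ninth library the log2 fold changes were larger, 0.43 for FASN and 0.39 for ACLY, but neither was called (edgeR adjusted p = 0.0669 and 0.0506). ACSS2, SCD and SREBF1 were called lower. ACSS2 had 46.8, 33.0, 72.9 and 60.1 CPM in shCTL cells, 29.8, 23.2, 46.3 and 40.0 in shNELFE cells numbered 2 and 49.3 in the ninth library. It was lower in 4 of 4 pairs (log2 fold change -0.60, SE 0.07, edgeR adjusted p = 1.48e-04), and it was called with the ninth library (edgeR adjusted p = 0.0240). SCD had 769, 683, 838 and 879.9 CPM in shCTL cells and 559.8, 514, 628 and 585 in shNELFE cells numbered 2, which did not overlap (log2 -0.47, SE 0.06). The ninth library, at 865 CPM, lay within the shCTL range, and with it SCD was not called (edgeR adjusted p = 0.130).

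**Figure D3:**
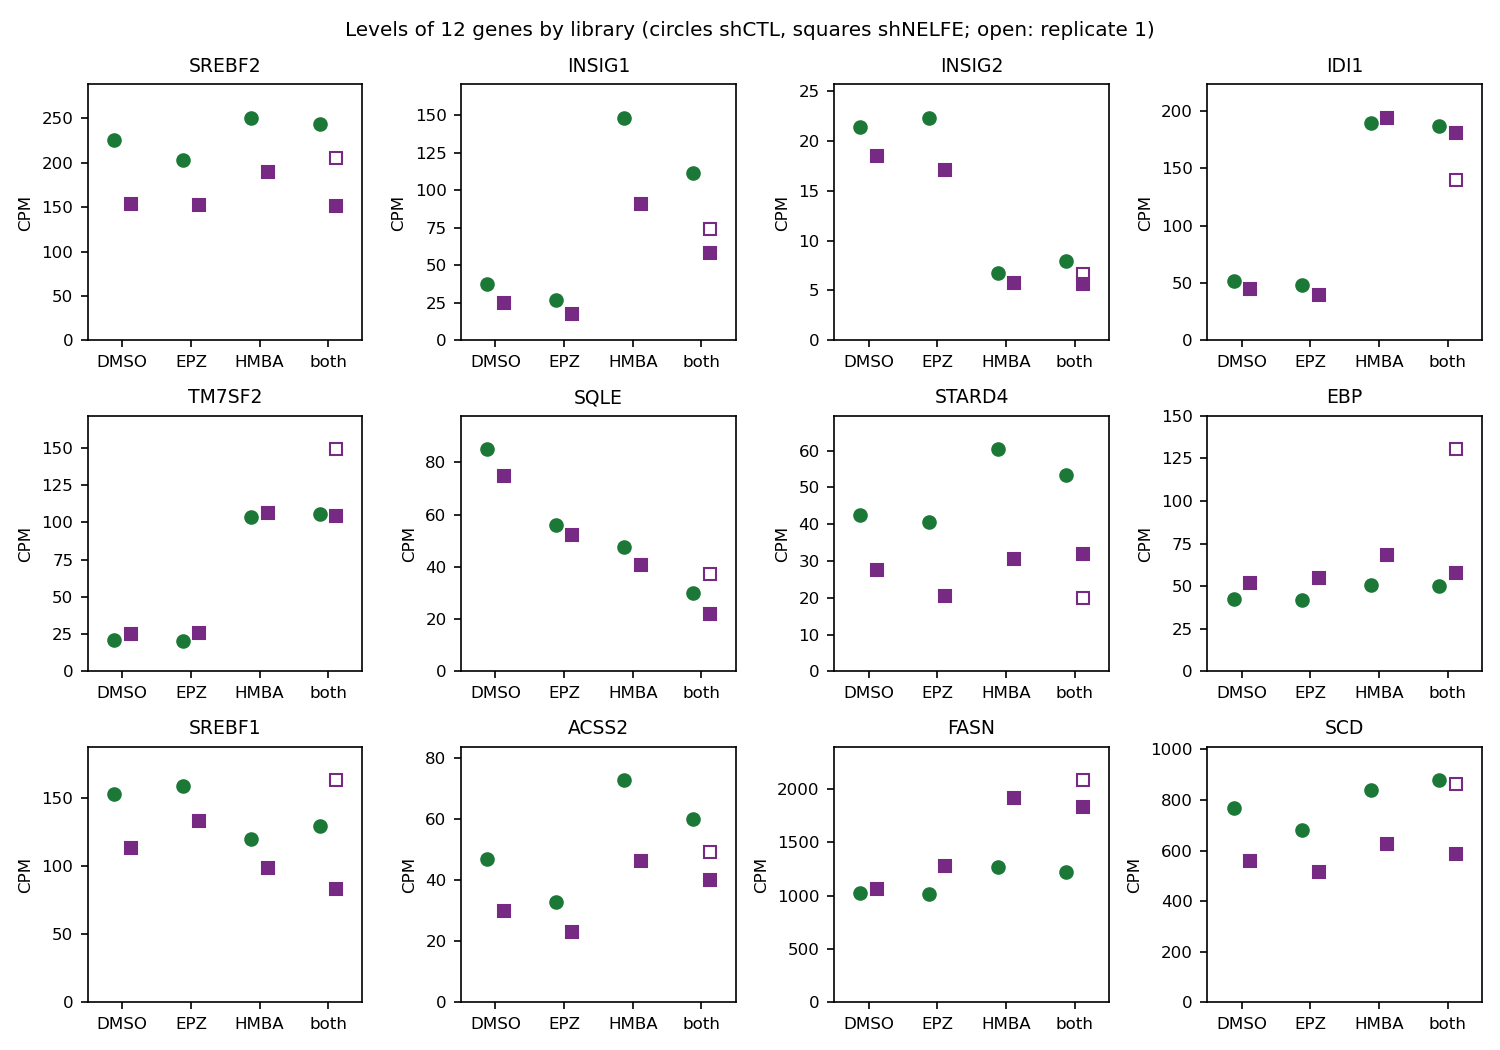
Levels of 12 genes in CPM (vertical axes, from 0) by treatment (horizontal axes; EPZ is EPZ-5676 and both is EPZ-5676 + HMBA), with 1 point per library; circles are shCTL, squares shNELFE, filled points replicate 2 and the open square shNELFE EPZ-5676 + HMBA replicate 1. Within each treatment the filled shNELFE square lies below the shCTL circle for SREBF2, INSIG1, INSIG2, STARD4, SREBF1, ACSS2 and SCD and above it for EBP and FASN, and the open square is far from the filled one for EBP, SREBF1 and SCD.

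With EPZ-5676, 7 members were called lower and 0 higher, and 0 of the 11 members with an unadjusted p under 0.05 were higher (edgeR). Of 24 sterol genes 4 were lower (16.7%), against 2.44% of all genes, and of 12 fatty acid genes 3 were lower (25%), with 3.80% of all genes called in either direction and 1.36% higher. The median log2 fold change was -0.11 for the sterol genes and -0.12 for the fatty acid genes, against 0.0042 for all genes. With the ninth library 30 genes were called in place of 563, and 0 members (edgeR), of which 5 sterol and 3 fatty acid genes had an unadjusted p under 0.05. DESeq2 and limma-voom, run on the libraries numbered 2, also called 7 members each, 0 of them higher.

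SQLE (ENSG00000104549, chromosome 8, 124998497 to 125022283) had the largest change. Its levels without EPZ-5676 were 85.2, 75.0, 47.5 and 40.6 CPM in shCTL DMSO, shNELFE DMSO, shCTL HMBA and shNELFE HMBA. With EPZ-5676 they were 56.0, 52.2, 30.1 and 22.0 CPM in the same order, lower in each of 4 pairs. The ninth library, with both compounds, had 37.1 CPM. The fall was 1.57-fold (log2 fold change -0.65, SE 0.08, edgeR adjusted p = 5.78e-04), and with the ninth library it was -0.55 (edgeR adjusted p = 0.132). MSMO1 had 43.8, 35.8, 69.0 and 47.6 CPM without EPZ-5676 and 30.2, 22.8, 49.0 and 34.8 with it, and fell 1.45-fold (log2 -0.53, SE 0.07). INSIG1 fell with -0.51 (edgeR adjusted p = 0.00198) and FDFT1 with -0.39 (edgeR adjusted p = 0.00322), each in 4 of 4 pairs. With the ninth library INSIG1 had the smallest edgeR adjusted p of these 4 genes, 0.0867. HMGCS1 was lower in all 4 pairs, with no overlap between the arms, but did not pass the test (-0.21, edgeR adjusted p = 0.0764). Of the other regulators, SREBF2 had -0.13, SCAP 0.16, INSIG2 0.027 and SREBF1 0.045, none of them called.

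ELOVL6 and ME1 were the fatty acid genes whose arms did not overlap. ELOVL6 had 94.8, 91.2, 83.8 and 84.8 CPM without EPZ-5676 and 76.4, 66.8, 63.1 and 60.1 with it, a 1.33-fold fall (log2 fold change -0.41, SE 0.06, edgeR adjusted p = 0.00318). In the ninth library it was 75.9 CPM. ME1 had 87.2, 90.8, 103 and 113 CPM without EPZ-5676 and 68.1, 65.6, 82.9 and 81.2 with it, and fell 1.32-fold (log2 -0.40, SE 0.06). The ninth library, at 104 CPM of ME1, lay among the libraries without EPZ-5676. ACSS2 fell with -0.34 (edgeR adjusted p = 0.0196) and lost its call after any of 5 libraries was left out. FASN had 0.027, SCD -0.080 and ACLY -0.14, with edgeR adjusted p of 0.891, 0.468 and 0.190.

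The 3 effects come from the same 8 libraries, so values of a gene for each are given side by side and not correlated. INSIG1 had log2 fold changes of 1.93 for HMBA, -0.73 for shNELFE and -0.51 for EPZ-5676, which leaves it lowest in shNELFE EPZ-5676 (17.3 CPM) and highest in shCTL HMBA (148 CPM). ACSS2 had 0.73, -0.60 and -0.34 in that order, MSMO1 0.60, -0.43 and -0.53, and FDFT1 0.77, -0.25 and -0.39, all called. SQLE was lower for each, with -0.96 and -0.65 called for HMBA and EPZ-5676 and -0.23 for shNELFE missing the threshold (edgeR adjusted p = 0.0650). FASN was higher with HMBA (0.49) and with knockdown (0.39). IDI1, TM7SF2, SC5D, NPC1 and ACSL3, the members that rose over 2-fold with HMBA besides INSIG1, were not called for shNELFE or EPZ-5676, where their log2 fold changes ran from -0.15 (SC5D, EPZ-5676) to 0.14 (TM7SF2, shNELFE).

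Averaged over a subset, the mean level was lowest in shNELFE EPZ-5676 cells for both kinds of gene, but the median was lowest in shNELFE DMSO for sterol genes (-0.26, against -0.25 in shNELFE EPZ-5676) and in shCTL EPZ-5676 for fatty acid genes (-0.28 against -0.16). The mean log2 relative level of the 24 sterol genes, each gene set against its own mean over the 8 libraries, was -0.058 in shCTL DMSO, -0.22 in shNELFE DMSO, -0.19 in shCTL EPZ-5676 and -0.35 in shNELFE EPZ-5676. With HMBA it was 0.37 in shCTL, 0.21 in shNELFE and 0.23 in shCTL with EPZ-5676. The shNELFE EPZ-5676 + HMBA libraries had 0.36 (the ninth) and 7.78e-05 (replicate 2). For the 12 fatty acid genes the means were -0.022, -0.11, -0.18 and -0.22 without HMBA, 0.22, 0.21 and 0.089 with it, and 0.39 in the ninth library and 0.019 in its replicate 2. In both subsets the 2 libraries of that group were thus further apart than shCTL HMBA was from shNELFE HMBA.

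Whether 1 factor changes a gene's response to another was tested with product terms, each added alone to the fit. No member was called for any of the 3 terms (edgeR). Of all genes, 36 (0.243%) were called for HMBA by shNELFE, 5 (0.0338%) for HMBA by EPZ-5676 and 0 (0%) for shNELFE by EPZ-5676. At an unadjusted p under 0.05, edgeR had 2, 2 and 0 of the 37 members, DESeq2 1, 0 and 0 and limma-voom 2, 3 and 0, and over all genes edgeR had 1121, 1654 and 269. FASN had the smallest p for HMBA by shNELFE, with a product term of 0.39 (SE 0.12, edgeR adjusted p = 0.418), followed by TM7SF2 at -0.30 (SE 0.13, edgeR adjusted p = 0.609). For HMBA by EPZ-5676 the smallest were DHCR7 at -0.29 (SE 0.12) and SCAP at -0.32 (SE 0.14), with edgeR adjusted p of 0.398 and 0.418.

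Genes around the pathway, from 8 further lists of 107 genes, put the members in context. Of 13 genes that process or degrade the SREBP machinery, 5 were higher and 4 lower with HMBA, among them USP20, a deubiquitinase (1.52), and PGRMC1 (0.63), and 1 was higher and 1 lower with shNELFE. Of 13 genes of the isoprenoid branch, which turns farnesyl units into prenyl anchors, ubiquinone and dolichol, 1 was higher and 10 lower with HMBA, where 34.9% of all genes were higher and 35.7% lower. ICMT (-0.41) and the farnesyltransferase subunit FNTA (-0.48) had the smallest p, and 0 of the 13 were called for shNELFE or EPZ-5676 (edgeR), with 5 and 2 at an unadjusted p under 0.05. DESeq2 called 1 and 0 of them and limma-voom 0 and 0. For 11 tested genes of sterol uptake, storage and egress the HMBA counts were 6 higher and 3 lower, with TMEM97, which binds NPC1, at -1.62. NPC2, the lysosomal partner of NPC1, was lower with shNELFE (-0.37), as was the sterol exchanger OSBP (-0.26), and SOAT1, which esterifies cholesterol, was lower with EPZ-5676 (-0.42). Of 9 LXR targets and receptors 5 were higher and 3 lower with HMBA. MYLIP, a ubiquitin ligase that LXR induces, had 76.1 ± 6.15 CPM with HMBA and 8.98 ± 2.24 without it (SD, n = 4; log2 3.10, edgeR adjusted p = 8.51e-11), a larger change than that of any member.

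On the fatty acid side, 12 of 14 tested oxidation genes were higher with HMBA and 0 lower, among them CPT1A, which admits fatty acids to mitochondria (0.66), and HADHA (0.58). With shNELFE 4 of the 14 were higher (28.6%, against 5.62% of all genes) and 0 lower, including HADH (0.27) and CPT1A (0.23). Of 13 glycerolipid genes 6 were higher and 4 lower with HMBA, and DGAT1, which makes triacylglycerol, had 202 ± 8.74 CPM with HMBA against 46.8 ± 4.78 without it (SD, n = 4; log2 2.11). LPIN1, a phosphatidate phosphatase, had 1.42. Of 9 NADPH-supplying genes 5 were higher and 1 lower with HMBA, with IDH1 at 1.16 and PGD at 0.62. PGD was also the NADPH gene called lower with EPZ-5676 (-0.25). Of 17 other genes of fatty acid synthesis, elongation and activation 7 were higher and 6 lower with HMBA, including the acyl-CoA synthetase ACSL1 (1.49) and the transcription factor MLX (-1.28). In that list the elongase ELOVL1 was lower with shNELFE (-0.55) and ACSL5 with EPZ-5676 (-0.47). For HMBA, 34.9% of all genes were called higher and 35.7% lower. The oxidation list (85.7% higher, 0% lower) and the isoprenoid branch (7.69% higher, 76.9% lower) lay far from these shares. The other related lists ran from 38.5% to 55.6% higher and from 11.1% to 35.3% lower. The lists were chosen with earlier results of these data known, and none was tested as a set.

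The 7 libraries that stand apart also differed from the 9 in cell type markers. Mesenchymal markers summed to 12.6 to 8055 CPM in the 7 and 34.1 to 105 in the 9. Epithelial markers summed to 6933 to 31476 CPM in the 7 and 4394 to 7661 in the 9. Of 10 epithelial markers, 3 (EPCAM, KRT8 and KRT18) exceeded 1 CPM in every one of the 7, and CDX1 was 0. Whether the 2 sets hold the same cells was not tested. The lipid genes differed as well, on totals scaled over all 16 libraries. The 7 were not alike, and FADS2 ran from 17.2 to 252 CPM among them. SCAP, MVK, PMVK, MVD, FDPS, SQLE, LSS, NSDHL, DHCR7 and FADS1 were higher in every one of the 7 than in any of the 9. DHCR7 ran from 143 to 666 CPM in the 7, against 36.1 to 69.1 CPM in the 9, and LSS from 123 to 571 against 39.0 to 76.1. HMGCS1, SC5D, STARD4, ELOVL6 and ACSL3 were lower in every one of the 7. STARD4 ran from 1.80 to 6.10 CPM in the 7, against 19.5 to 60.2 CPM in the 9. The other 23 genes overlapped. These gaps are not assigned to a factor.

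**Figure D4:**
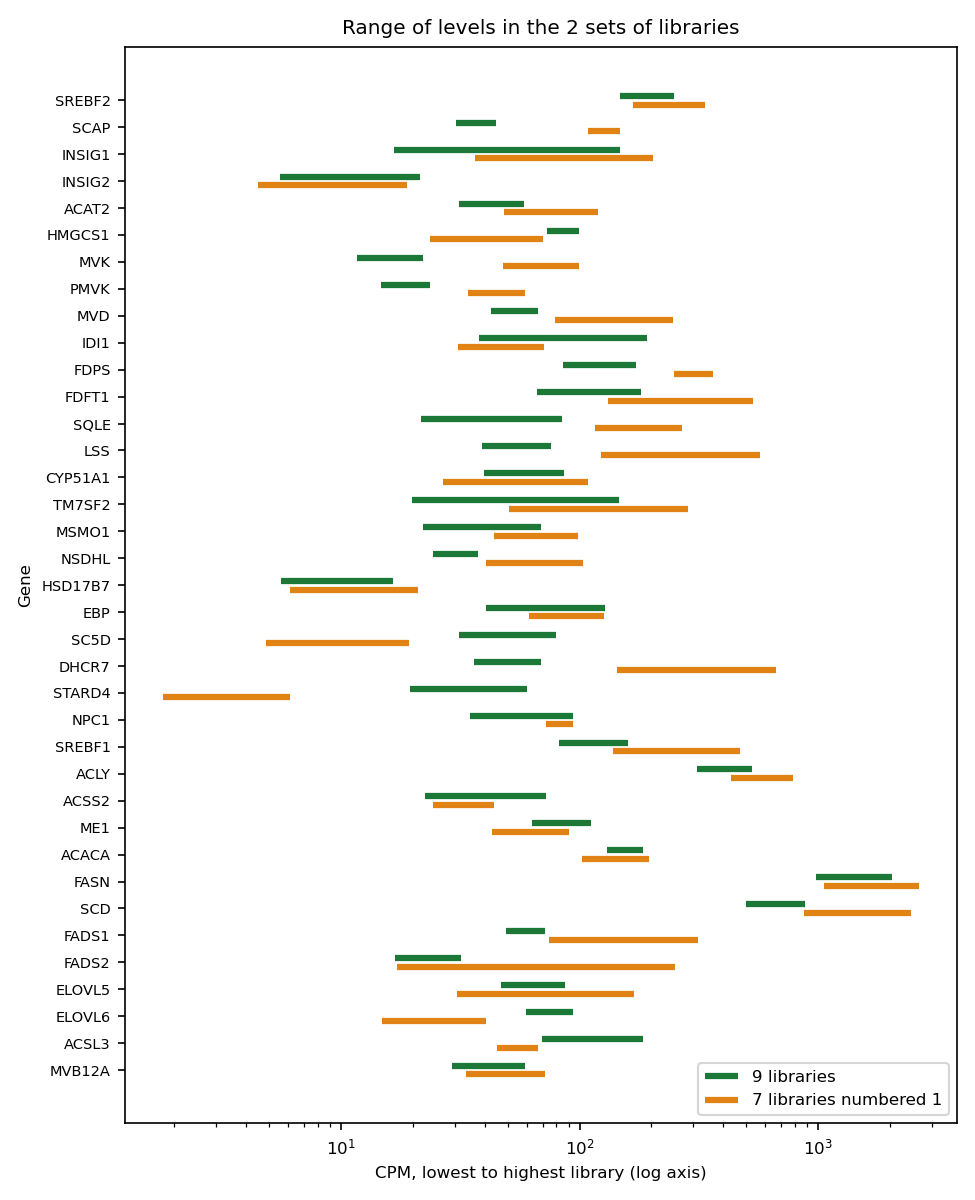
Range of CPM (log axis, lowest to highest library, scaled over 16 libraries) of 37 genes in the 9 libraries (green) and in the 7 libraries numbered 1 that stand apart (orange). The bars part fully for 15 genes, with orange above green for genes such as SCAP, LSS and DHCR7 and below it for STARD4, SC5D and HMGCS1.

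Some counts may be shared with other genes, since the sources used here give no strand setting for the counting. CYP51A1 shares 2844 bases of exon on the same strand with a second annotated gene, and ACAT2 overlaps SOD2 by 1141 bases on the opposite strand. FADS1 and FADS2 overlap each other by 490 bases, NPC1 overlaps RMC1 by 604, SREBF1 overlaps RAI1 by 556 and MVK overlaps MMAB by 306. Opposite-strand genes also overlap HMGCS1 by 703 bases, FDPS by 693, IDI1 by 643, LSS by 448 and 122 and SREBF2 by 280. Shorter overlaps of this kind were found for FDFT1 (217), ACLY (156), STARD4 (124) and ACSL3 (102). On the same strand, MVB12A overlaps another gene by 607 bases and TM7SF2 by 16. FDPS, CYP51A1, HSD17B7, SCD and FADS2 have annotated pseudogenes. The levels of these genes are therefore less certain than those of INSIG1, SQLE, MSMO1, EBP, ACSS2, ME1 or FASN, for which neither was found.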

How the data were processed

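HCT116 libraries were prepared with a stranded TruSeq mRNA kit and oligo(dT) selection, per the labels' protocols. The deposited table, as the authors made it, holds raw counts per gene for 16 libraries. STAR 2.4.0b, HTSeq 0.6.1p1, Cufflinks 2.1.1, edgeR and the build hg38 are named per the submitters' processing notes, which do not say what each did. The strand setting and annotation release are not given in any source used here. The members and gene lists were chosen with earlier results of these data known.

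The 38 members were matched by symbol, and positions and exon lengths were taken from the GENCODE annotation of GRCh38. From the deposited counts, edgeR 4.0.16 (R 4.3.3) was run on the 8 libraries numbered 2 with its default filter on low counts, TMM scaling and a quasi-likelihood F-test, which left 4 residual degrees of freedom. P-values were adjusted by Benjamini-Hochberg over 14808 genes, and the threshold was 0.05. SE is the size of the log2 fold change divided by the square root of F. Levels are CPM with TMM scaling over 9 libraries. The genes given by name for each effect were the 5 regulators and, in each subset, the 4 others with the smallest p among those called, and further members were named to account for the list. From the 8 related lists, the 2 called genes with the smallest p for an effect could be named. Alternatives were RLE scaling, unscaled totals, no filter, DESeq2 1.42.0, limma-voom (limma 3.58.1), the ninth library, all 16 libraries with replicate number as a block, and each library left out. The fit was tested on simulated data.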

Additional observations from a re-analysis of the deposited data

How the results depend on the processing

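Among 31 calls of the members chosen by rule, 434 alternative values over 8 or 9 libraries kept direction and side of the threshold in 397, lost the call in 36 and reversed in 1 (SREBF2 for HMBA on unscaled totals, -0.050). Most of these values refit the same 8 libraries or leave 1 out, so they are not independent. The only setting among them that adds a library, the ninth, lost 17 of the 31 calls. On unscaled totals 5 fatty acid genes were called for HMBA. With the ninth library, shNELFE calls fell to 353 genes, 3 sterol and 1 fatty acid, and EPZ-5676 calls to 30 genes, 0 sterol and 0 fatty acid. Leaving out 1 library gave 1023 to 2002 genes and 6 to 9 sterol genes for shNELFE and 210.0 to 604 genes for EPZ-5676. Both gene counts fell by over 1.5 times without shCTL DMSO, shNELFE EPZ-5676, shCTL HMBA or shNELFE EPZ-5676 + HMBA, as did that of shNELFE without shCTL EPZ-5676 + HMBA and that of EPZ-5676 without shNELFE DMSO or shCTL EPZ-5676. Without the filter, 1077 genes were called for EPZ-5676. The near-zero shNELFE median of the fatty acid genes went to -0.016 on unscaled totals, -0.0026 without the filter and -0.018 to 0.026 with 1 library left out. Uncalled EPZ-5676 values crossed 0 with 1 library left out, from -0.021 to 0.13 for SREBF1 and -0.019 to 0.089 for INSIG2.

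For HMBA by shNELFE, 159 genes were called without the filter, 58 by DESeq2, 2 with the ninth library and 20 to 105 with 1 library left out. For HMBA by EPZ-5676 the counts were 184, 23, 0 and 4 to 37, with 2 under RLE scaling and 3 on unscaled totals. For shNELFE by EPZ-5676 they were 31 without the filter, 1 by DESeq2, 1 on unscaled totals and 0 to 7 with 1 library left out. In each of these the cause was not tested.

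Same-numbered samples correlated between groups at 0.069 to 0.965, over 0.1 in 24 of 28 pairs of groups. Pairing required every pair to be over 0.1, so the numbers were not taken to pair samples, although all correlations were positive and 7 of the 8 libraries numbered 1 stand apart together. With the replicate block on all 16 libraries, 0 genes, 0 sterol and 0 fatty acid members were called for HMBA, shNELFE and EPZ-5676, and the product terms called 0 genes for HMBA by shNELFE and 1 for HMBA by EPZ-5676. Under the block the fatty acid shNELFE median was -0.10, SCAP had -0.092 for shNELFE, and for EPZ-5676 SREBF1 had -0.0072, SCAP -0.026, INSIG2 -0.18 and ACSS2 0.053. That fit includes the 7 libraries that stand apart, of which 5 go against their labels in NELFE or HEXIM1.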
